A study of Rattus norvegicus with 30 samples.

Results

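Cell division genes were followed in the hearts of untreated Fischer 344 (F344) rats of the National Center for Toxicological Research colony at 3 ages, young (8 weeks), adult (21 weeks) and old (78 weeks), with 5 female and 5 male rats per age. Each rat gave 1 whole ground heart and 1 array, so that a value stands for all cell types of the organ together. The set held 56 gene symbols of the cell cycle, from cyclins and mitotic kinases to replication and nucleotide supply, listed by name. Earlier results of these data were known when they were chosen. Of the 56, 48 had an entry in at least 1 of the 3 tables the authors deposited, among 14654 gene names in all, and these 48 were tested. Mki67, Cdkn3, Plk4 and Hmmr had a probe but no table entry, and no probe carried the names Nek2, Cdca3, Ncapg and Gins1.

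A dividing cell copies its DNA with the MCM helicase and its sliding clamp, then enters mitosis through the kinase Cdk1 with B-type cyclins. Kinesins and spindle proteins separate the chromosomes, and the anaphase-promoting complex ends mitosis by marking its substrates for destruction. Heart muscle cells of rodents divide before and shortly after birth and then largely leave the cell cycle, while the endothelial cells, fibroblasts and blood cells of the organ can still divide. In whole hearts, fewer cells of a dividing type and less RNA per cell cannot be told apart.

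A level is given here as the log2 of a spot's processed signal over the 75th percentile of its array, so that 0 is the 75th percentile, and levels were compared only within a probe. A spot was well above background where the scanner software said so. The labelled tissue bore its markers: all 5 heart muscle markers were well above background on every array. The 75th percentile of the processed signal ranged from 39.9 to 171 between arrays, and 62.7% to 79.1% of all gene names were well above background. The lowest of both belonged to 21-week male replicate 2. At 78 weeks, the array labelled female replicate 2 and that labelled male replicate 3 had the other sex's level of the Y-linked genes Ddx3y and Eif2s3y, so that the sex comparisons at that age are given with and without them. Rats of different ages were run in different batches according to the study's methods, which made no comparison between ages. Only 1 of 8 slides held arrays of both 8 and 78 weeks, and none held 21 weeks with another age. Females sat only at array positions 2 and 4 of a slide and males only at 1 and 3, so that sex and position cannot be told apart.

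Of the 48 genes, 17 were well above background on all 30 arrays, 9 on 1 to 5 arrays, and Kif11, Nusap1, Cdca8 and Smc2 on 0. At 8 weeks, 32 to 35 of the 48 were well above background in females, with a median of 33, and 36 to 38 in males, with a median of 37. The 2 sexes did not overlap in this number at 8 weeks. At 78 weeks the number was 26 to 32 in females and 28 to 31 in males. At 21 weeks it ranged from 25 to 35 in females and from 21 to 38 in males, the widest spread of the 3 ages, and the lowest was again male replicate 2.

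**Figure D1:**
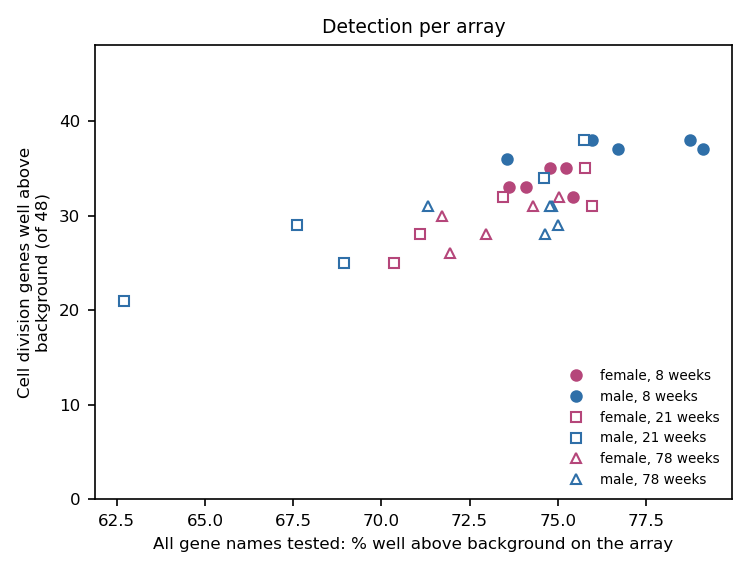
Number of the 48 cell division genes well above background on each array (vertical axis) against the percentage of all 14654 gene names that were (horizontal axis), 1 point per rat, by sex and age. The 8-week males lie highest, at 36 to 38 genes, a number that 1 adult male also reached, with 73.6% to 79.1% of all gene names, and the 8-week females at 32 to 35 genes, with 73.6% to 75.4%.

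Promoter sequence is shown first for 4 genes that differed both with age and between the young sexes, and for 2 replication genes as a contrast. RefSeq promoters of the rat assembly GRCr8, from 250 bases before to 50 bases after the start of a gene, were found for 47 of the 56 symbols. They were searched on both strands for the cell cycle homology region, CHR (TTTGAA or TTCGAA), a motif found before many genes of the later cell cycle, for the CCAAT box (CCAAT), and for 4 words of the E2F site (TTTGGCGC, TTTCCCGC, TTTGGCGG and TTTCCCGG), found before many replication genes. Below are the 150 bases before the start, 5′ to 3′ on the strand of the gene, with every match to these motifs on either strand in capitals.
Cdk1, chr20:19265143-19265292, plus strand: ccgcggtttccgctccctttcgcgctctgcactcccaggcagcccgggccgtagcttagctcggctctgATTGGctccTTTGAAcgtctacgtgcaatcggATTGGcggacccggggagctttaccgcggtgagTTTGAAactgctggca
Ccnb1, chr2:33655226-33655375, minus strand: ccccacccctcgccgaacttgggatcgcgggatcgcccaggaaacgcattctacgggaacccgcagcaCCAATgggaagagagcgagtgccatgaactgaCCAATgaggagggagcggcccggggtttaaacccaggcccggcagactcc
Kifc1, chr20:5000779-5000928, plus strand: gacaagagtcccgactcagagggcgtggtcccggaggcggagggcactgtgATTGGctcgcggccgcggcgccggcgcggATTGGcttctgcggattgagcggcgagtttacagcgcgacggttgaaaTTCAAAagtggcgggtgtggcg
Ckap2, chr16:76541964-76542113, plus strand: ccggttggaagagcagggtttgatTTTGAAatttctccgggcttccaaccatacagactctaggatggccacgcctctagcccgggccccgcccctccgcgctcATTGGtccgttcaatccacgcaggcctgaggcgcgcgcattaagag
Mcm5, chr19:13488663-13488812, plus strand: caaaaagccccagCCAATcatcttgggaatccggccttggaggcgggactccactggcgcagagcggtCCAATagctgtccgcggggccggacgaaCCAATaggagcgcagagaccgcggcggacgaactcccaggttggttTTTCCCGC
Mcm6, chr13:42404353-42404502, minus strand: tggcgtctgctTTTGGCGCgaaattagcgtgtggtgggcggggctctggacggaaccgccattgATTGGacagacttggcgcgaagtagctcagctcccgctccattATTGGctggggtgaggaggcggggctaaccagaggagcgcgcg

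The Cdk1 stretch held 2 CHR and 2 CCAAT matches, that of Kifc1 held 1 and 2, and that of Ckap2 held 1 and 1. In the Ccnb1 stretch there were 2 CCAAT matches and 0 CHR matches. Mcm5 and Mcm6 each had 1 E2F word, with 3 and 2 CCAAT matches. Over the whole 300 bases, a CHR match stood in 30 of the 47 promoters (63.8%) against 19.5% of all 27457 in the table, and a CCAAT match in 36 (76.6%) against 37.7%. An E2F word stood in 8 (17%) against 3.49%. A CHR match together with at least 2 CCAAT matches was found in 19 of the 47 (40.4%) and in 2.34% of all. Among tested genes, CHR matches stood before 9 of 9 chromosome, kinetochore and mitotic exit genes and 8 of 11 kinesin and spindle genes, 2 of 3 cyclin and Cdk1 genes, 3 of 6 mitotic kinases, 1 of 3 nucleotide supply genes and 2 of 7 replication genes. CCAAT matches stood before 6 of the 7 replication genes and 2 of the 6 mitotic kinases. E2F words stood before 5 of the 7 replication genes, 1 of the 9 chromosome and mitotic exit genes, 1 of the 3 nucleotide supply genes and 0 of the cyclin, kinase and spindle genes. In 2 of the 47 promoters the motifs shared bases. A match is a run of letters and was not tested as a binding site.

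The levels below come from 60-base probes, and 2 of those that the results turn on are given with their positions on the assembly rn3 as the scanner files name them. Each position spans more bases than the probe has, and the exons there were not looked up, as no annotation of that build was used here.
Ccnb1, chr2:31495178-31495417, listed end first: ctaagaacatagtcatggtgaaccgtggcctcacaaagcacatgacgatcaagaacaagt
Kifc1, chr20:5163815-5169295: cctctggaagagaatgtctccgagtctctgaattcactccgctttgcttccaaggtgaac

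Old hearts were first set against young ones. Genes of mitosis, from its cyclins and kinases to the spindle, the kinetochore and mitotic exit, were lower at 78 than at 8 weeks, while none of the DNA replication genes was called different. Of the 48 genes, 27 were lower and 0 higher at 78 weeks (limma, Benjamini-Hochberg adjusted p under 0.05), where 9.38% of all gene names were called lower and 7.52% higher. At an unadjusted p under 0.05 they were 32 and 0, against 15.5% and 13.4% of all. The difference was below 0 for 44 of the 48, against 49.1% of all gene names. Its median was -0.78 log2 over the 48 and 0.01 over all gene names. In 11 genes every old rat was below every young rat, which held for 1.94% of all gene names. By role, called lower were 4 of 5 cyclin and Cdk1 genes, 6 of 8 mitotic kinases, 8 of 13 kinesin and spindle genes, 8 of 10 chromosome, kinetochore and mitotic exit genes, 1 of 4 nucleotide supply genes and 0 of 8 replication genes, of which 3 were lower at an unadjusted p under 0.05.

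**Figure D2:**
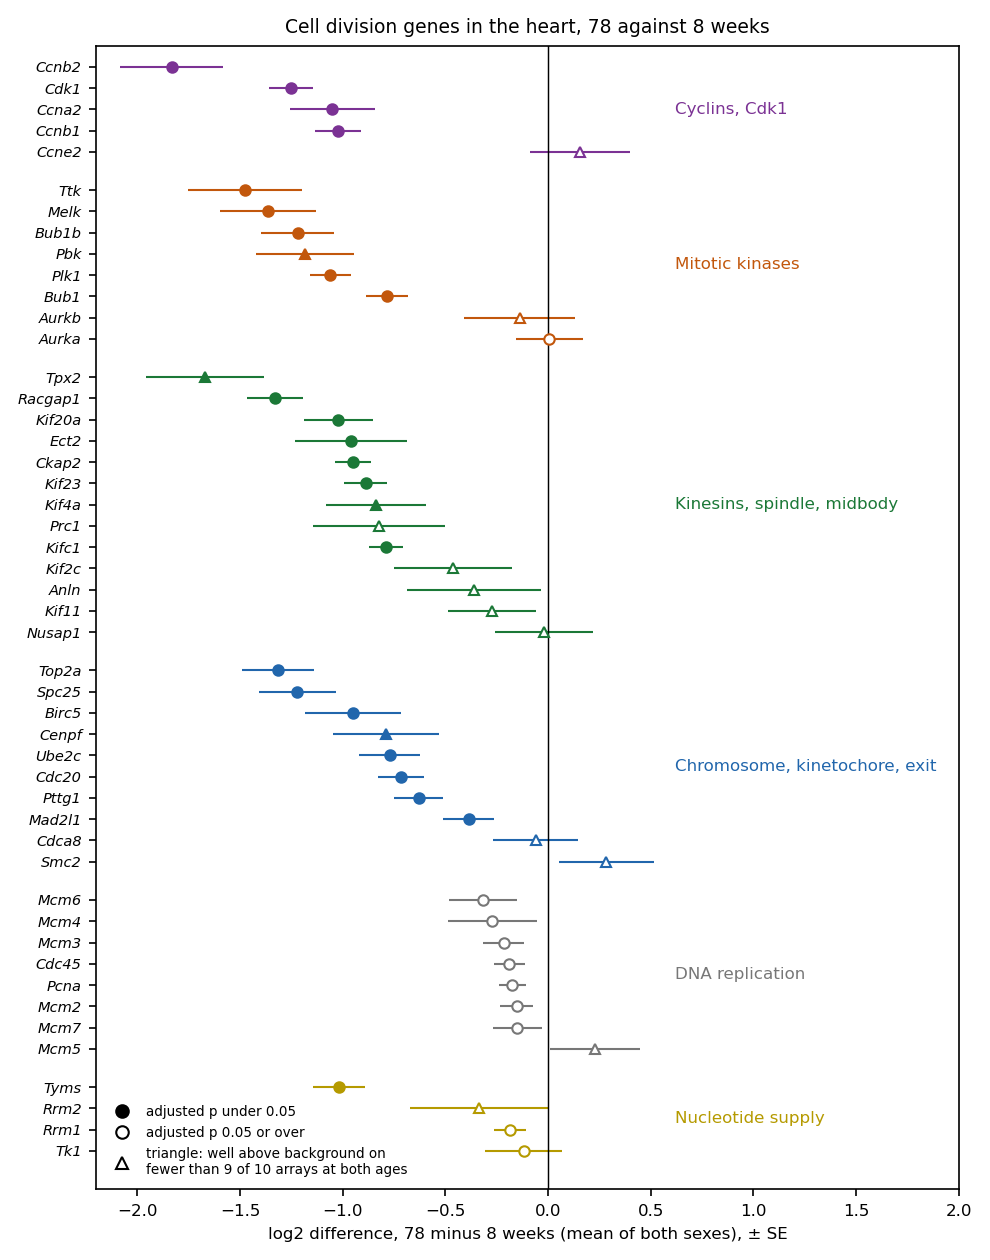
Log2 difference in level, 78 minus 8 weeks, of each of the 48 genes (mean of both sexes, bars ± SE, 10 rats per age), grouped by role, with filled symbols for adjusted p under 0.05 and triangles for dim probes (well above background in fewer than 9 rats at each of both ages). Most genes of mitosis lie left of 0, with Cdk1 at -1.25, whereas the 8 replication genes lie near 0 and are all open.

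Cdk1, the kinase that drives entry into mitosis, had levels of 0.35 (lowest), 0.99 (median) and 1.65 (highest) in young rats and of -0.81, -0.24 and 0.22 in old rats. The 10 old rats all lay below the 10 young ones, a difference of -1.25 ± 0.11 log2 (SE), or 2.38-fold lower (adjusted p = 2.01e-09, limma). Its partner cyclin B1, Ccnb1, ranged from -2.45 to -1.0 around a median of -1.82 at 8 weeks and from -3.19 to -2.11 around -2.71 at 78 weeks. The ages overlapped for Ccnb1, and the difference was -1.02 ± 0.11 (2.03-fold, adjusted p = 1.61e-07). Ccnb2, the other B-type cyclin, was well above background in 9 of 10 young and 0 of 10 old hearts, and was at least 1.72-fold lower in old rats (adjusted p = 5.59e-06), a bound set by the lowest signals that counted as well above background. Ccna2, the cyclin of S phase and early mitosis, differed by -1.05 ± 0.21 (2.07-fold, adjusted p = 0.000604), with 10 young and 2 old rats well above background. Under normexp, a model-based background correction, on the local background of each spot, Ccnb2 and Ccna2 turned to 0.048 and 0.045 (adjusted p = 0.798 and 0.80, limma). Ccne2, a cyclin of the entry into S phase, differed by 0.16 and was not called (95% interval -0.34 to 0.65).

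Among the mitotic kinases, Plk1, which acts on centrosomes and kinetochores, ranged from -0.59 to 0.19 around -0.20 in young rats and from -1.55 to -0.82 around -1.24 in old rats. These ranges did not overlap, and the difference was -1.06 ± 0.10 (2.08-fold, adjusted p = 1.81e-08). The spindle checkpoint kinases were lower too. Bub1b spanned -2.12 to -1.0 at 8 weeks and -3.50 to -2.37 at 78 weeks, again with no overlap (-1.22 ± 0.18, 2.33-fold, adjusted p = 1.29e-05). Bub1 differed by -0.78 ± 0.10 (1.72-fold, adjusted p = 3.03e-06) and Ttk by -1.47 ± 0.28 (2.78-fold, adjusted p = 0.000369). Melk, a kinase abundant in dividing progenitor cells, differed by -1.37 ± 0.23 (2.58-fold, adjusted p = 0.000116), with 9 young and 2 old rats well above background. Pbk was called lower but was above background in only 3 young rats, and Aurka and Aurkb differed by 0.01 and -0.14 without being called (95% intervals -0.33 to 0.35 and -0.69 to 0.42).

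Of the kinesins and midbody proteins, 8 of 13 were lower. Racgap1, a part of the centralspindlin complex that places the cleavage furrow, ranged from -0.40 to 0.21 around -0.14 in young rats and from -2.24 to -1.11 around -1.35 in old rats. All old rats lay below all young rats, by -1.33 ± 0.14 (2.51-fold, adjusted p = 5.63e-08). Its partner in that complex, Kif23, differed by -0.89 ± 0.11 (1.85-fold, adjusted p = 8.61e-07), and Ect2, the exchange factor that the complex recruits, by -0.96 ± 0.27 (1.95-fold, adjusted p = 0.0144). Kif20a, a kinesin of the late spindle, was lower by a difference of -1.02 ± 0.17 (2.03-fold, adjusted p = 7.13e-05). Ckap2, a protein of spindle microtubules, ranged from -1.16 to -0.29 at 8 weeks and from -2.34 to -1.30 at 78 weeks, with no overlap (-0.95 ± 0.09, 1.93-fold, adjusted p = 5.84e-09). Kifc1, a minus-end kinesin of the spindle, ranged from 0.56 to 1.37 and from -0.32 to 0.48 (-0.79 ± 0.08, 1.73-fold, adjusted p = 6.88e-08). Neither gene had an old rat within the range of the young. Tpx2, a spindle assembly factor, was well above background in 8 of 10 young and 0 of 10 old hearts and at least 1.70-fold lower (adjusted p = 0.000119), and turned to 0.086 under that normexp correction (adjusted p = 0.654). Kif4a, also called lower, was above background in 1 young rat.

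On the chromosomes, Top2a, the topoisomerase that untangles sister DNA, had levels of -1.89 to -0.87 around -1.22 in young rats and -3.60 to -2.06 around -2.51 in old rats. No old rat reached the young range, and the difference was -1.32 ± 0.18 (2.49-fold, adjusted p = 4e-06). Spc25, a subunit of the Ndc80 complex of the kinetochore, differed by -1.22 ± 0.19 (2.33-fold, adjusted p = 2.66e-05), also with no overlap. Birc5, or survivin, of the chromosomal passenger complex, differed by -0.95 ± 0.24 (1.93-fold, adjusted p = 0.00528), its ages overlapping. The genes of mitotic exit were lower too. Ube2c, the ubiquitin-conjugating enzyme of the anaphase-promoting complex, differed by -0.77 ± 0.15 (1.71-fold, adjusted p = 0.000476), its activator Cdc20 by -0.72 (adjusted p = 4.2e-05), securin, Pttg1, by -0.63 (adjusted p = 0.000448) and the checkpoint protein Mad2l1 by -0.39 (adjusted p = 0.0332). Cenpf was called lower but was above background in 1 young rat.

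None of the replication genes passed the test. Mcm2, a subunit of the replicative helicase, ranged from -1.09 to -0.62 around -0.82 in young rats and from -1.35 to -0.58 around -0.99 in old rats. The ranges overlapped, and the difference of -0.15 was not called (95% interval -0.32 to 0.01, adjusted p = 0.216, limma). Pcna, the sliding clamp, ranged from 2.37 to 2.56 at 8 weeks and from 2.12 to 2.38 at 78 weeks, a difference of -0.17 (95% interval -0.31 to -0.04, adjusted p = 0.0729). Mcm3, Mcm4, Mcm6, Mcm7 and Cdc45 differed by -0.31 to -0.15, Mcm4 being well above background in 10 young and 6 old rats. Mcm5 was well above background in 2 young rats and 1 old rat, so that its probe bears on no difference. In nucleotide supply, Tyms, the thymidylate synthase, ranged from -2.03 to -1.12 in young and from -3.05 to -2.25 in old rats, with no overlap (-1.02 ± 0.13, 2.03-fold, adjusted p = 1.38e-06). Rrm1, the large subunit of ribonucleotide reductase, and the thymidine kinase Tk1 differed by -0.19 and -0.12 without being called. The reductase's small subunit Rrm2 was above background on 1 young array and 0 old ones, so that its reported probe bears on no level. A second Rrm2 probe, well above background on 8 arrays over all ages, differed by -0.99, a value without a test.

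**Figure D3:**
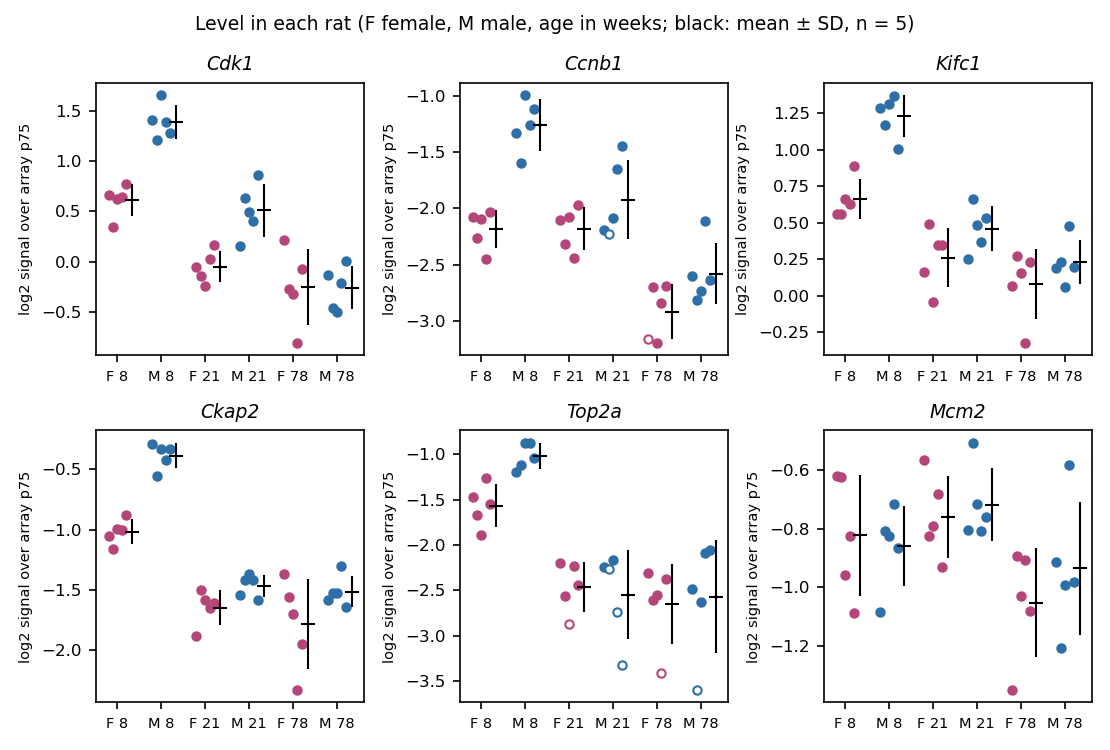
Level of 6 genes in each rat (log2 of processed signal over the array's 75th percentile, 5 rats per sex and age; open points are not well above background; black marks are mean ± SD). Cdk1, Ccnb1, Kifc1 and Ckap2 show 8-week males above all other groups' means, Top2a separates 8 weeks from both later ages, and Mcm2 shows overlapping groups throughout.

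Several further counts were set beside these age differences. Of other probes for the same genes, 14 probes of 11 genes were well above background on at least 5 arrays. All 14 were below 0 at 78 minus 8 weeks, as with a second Plk1 probe at -0.98, a Top2a probe at -1.23 and 2 Racgap1 probes at -0.86 and -1.36. They included probes of uncalled genes, such as Rrm1 at -0.04 and Pcna at -0.17. Young arrays alone can meet the limit of 5 arrays, so that the filter favours probes that are higher at 8 weeks. Dimmer probes went both ways, such as Cenpf at 0.46 and Ttk at -0.79. On the slide that held both ages, with 2 arrays of each, 39 of the 48 genes were below 0, with a median of -0.74 against -0.00 over all gene names, and all 27 called genes were below 0. These arrays were also in the fit that called the 27, so that their sign on that slide is no separate check. There Cdk1 differed by -0.98 and Ccnb1 by -1.30, values without a test. With slide as a fixed block, which leaves the age difference to that slide, 6 of the 48 were called lower, where 0.682% of all gene names were. The 8-week and 78-week arrays of the same scan day gave 27 of the 48 and 15.4% of all. Without the 2 arrays whose Y-linked genes went against the label, 27 were lower as well. Normexp on the local background left 3 arrays raised, as given above. Under it 7 of the 48 were lower and 0 higher, at 2.01% and 2.13% of all gene names, and 24 of the 48 differences were below 0. The raw median spot signal gave 21 and 0 (7.47% and 6.82% of all), and a normexp correction by the median background of each array, chosen after seeing the data, 19 and 0 (9.55% and 8.61%). Markers of other cells differed as well: 2 of 5 fibroblast markers (Col1a1 -0.67, Col3a1 -1.49) and 2 of 5 endothelial markers (Cdh5 -0.63, Emcn -0.49) were lower at 78 weeks, 2 of 5 macrophage markers (Cd68 0.39, Cd163 0.91) were higher, and the part of any cell type in the differences was not tested. A summed level is the log2 of the summed signals of a list, so that its brightest markers weigh most, such as Col3a1 or the endothelial Kdr. For the fibroblast markers it was 8.49 to 8.80 in young and 7.33 to 8.13 in old rats. For the endothelial markers it was 6.79 to 7.33 and 6.64 to 7.01. All 5 markers of both lists were well above background on every array. All 3 measured smooth muscle and pericyte markers differed, Rgs5 (-0.40) and Pdgfrb (-0.34) being lower and Myh11 (0.48) higher, with summed levels of 4.70 to 4.92 in young and 4.49 to 5.19 in old rats. Of 5 heart muscle markers Pln was lower (-0.42), of 3 adipocyte markers Cfd was higher (1.29), and 0 of the 12 measured lymphocyte, thymocyte and erythroid markers were called.

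**Figure D4:**
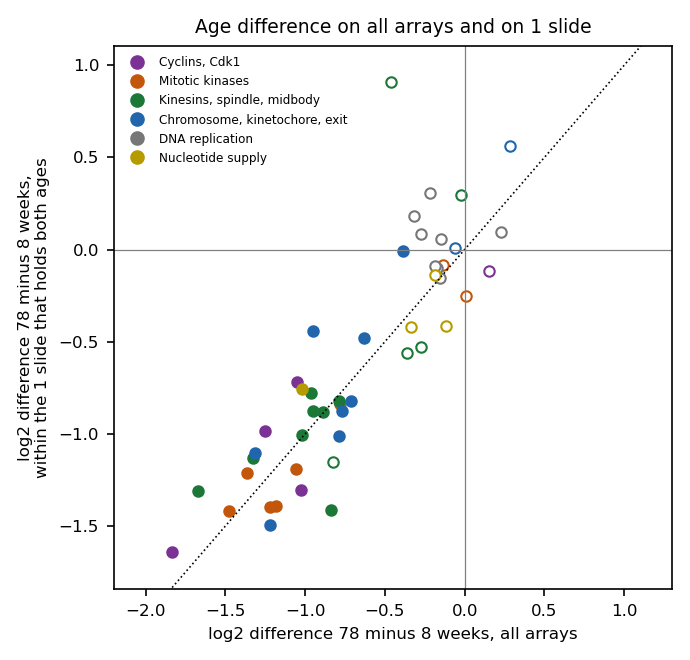
Log2 difference, 78 minus 8 weeks, of the 48 genes over all arrays (horizontal axis, 10 rats per age) and within the 1 slide that held both ages (vertical axis, 2 arrays per age), coloured by role, with filled points for genes called on all arrays. All 27 filled points lie below 0 on both axes, and the arrays of the vertical axis are also part of the horizontal one.

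The wider cell cycle, a list of 63 other genes, was counted beside these. At 78 weeks 24 were lower and 1 higher, against 9.38% and 7.52% of all gene names, with a median of -0.21. How many of the 63 were well above background is not given here. Lower were 17 of 27 genes of chromosomes and spindle, 3 of 18 of replication, 3 of 7 transcription factors and 1 of 11 cyclins, kinases and phosphatases of the D- and E-cyclin steps. Examples were the chromokinesin Kif22 at -1.66 (adjusted p = 1.47e-07, limma), separase, Espl1, at -1.27 (adjusted p = 0.000101), the kinetochore protein Nuf2 at -1.14 (adjusted p = 6.89e-05) and the transcription factor Mybl2, which acts at promoters of late cell cycle genes, at -1.26 (adjusted p = 0.000378). The gene that was higher was Rbl2, the pocket protein p130 of quiescent cells, at 0.21 (adjusted p = 0.0144).

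Adult hearts were set against both. All 8-week arrays were scanned on scan day 1 and all 21-week arrays on scan day 2, on separate slides. Age, slide and scan day thus cannot be told apart between these 2 ages. At 21 weeks, 23 of the 48 were lower than at 8 weeks, where 15.6% of all gene names were, and 2 were higher, where 36.7% were. The median over all gene names was itself at 0.19, that of the 48 at -0.42, which is -0.61 relative to it, and 38 of the 48 lay below the median of all. Every adult rat was below every young rat for Top2a, Racgap1 and Ckap2, a pattern of 2.66% of all gene names. Top2a ranged from -3.32 to -2.16 in adults, a difference of -1.21 (2.31-fold, adjusted p = 6.2e-06), and differed by a further -0.11 from 21 to 78 weeks, which was not called (adjusted p = 0.645). Cdk1 stood in between, at -0.24 to 0.87 around 0.16 in adults. It differed by -0.77 from 8 to 21 weeks (1.70-fold, adjusted p = 3.4e-06) and by -0.49 from 21 to 78 weeks (adjusted p = 0.000503). Bub1b differed by -1.38 (adjusted p = 1.2e-06) and Plk1 by -0.74 (adjusted p = 3.12e-06) between 8 and 21 weeks. The replication gene Mcm6 was lower at 21 weeks by -0.60 (1.51-fold, adjusted p = 0.00391), and Pcna higher by 0.18 (1.13-fold, adjusted p = 0.027). The Pcna difference was close to the median over all gene names, 0.19. Under normexp on the local background Mcm6 turned to 0.025 and Pcna to -0.13 (adjusted p = 0.885 and 0.609), and Pcna lost its call under 7 further alternatives. The other gene called higher, Smc2, was above background on 0 arrays.

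Markers of cell types moved between 8 and 21 weeks too, and their part was not tested. All 5 heart muscle markers were called higher, by 0.43 to 0.64, with summed levels of 10.7 to 11.3 in young and 11.2 to 12.6 in adult rats. Of the fibroblast markers Col1a1 (-0.88), Col3a1 (-1.56) and Pdgfra (-0.47) were lower and Dcn (0.33) higher. Their summed level, in which the brightest markers weigh most, did not overlap between the ages, at 8.49 to 8.80 in young and 7.67 to 8.09 in adult rats. The smooth muscle and pericyte sum did not overlap either, at 4.70 to 4.92 and 3.97 to 4.49, with Myh11 (-0.83) and Pdgfrb (-0.98) lower. Endothelial Pecam1, Cdh5 and Kdr were lower, by -0.63 to -0.52, and Emcn higher (0.32), and their sum ranged from 5.71 to 7.0 in adults against 6.79 to 7.33. Called higher were also 1 of 5 macrophage, 1 of 4 lymphocyte, 3 of 4 thymocyte, 2 of 4 erythroid and 1 of 3 adipocyte markers, while the erythroid Ahsp was lower. Of all gene names 36.7% were called higher here. The lymphocyte marker, Cd79a, and 1 of the thymocyte markers, Rag1, were well above background on 0 arrays, so that their calls rest on dim probes.

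Of the 27 genes lower at 78 and the 23 lower at 21 weeks, each against the same young rats, 22 were in both lists, which is 22 of 27 and 22 of 23. The shared young arrays build in some overlap for any genes, and the overlap over all gene names is not given here. The 5 called lower at 78 but not at 21 weeks, each against 8 weeks, were Birc5, Kif4a, Cdc20, Pttg1 and Mad2l1. The counts at 21 weeks depended on how background was treated. With the raw median spot signal 13 of the 48 were lower and 14 higher, at 11.7% and 54.2% of all gene names. Of the adult arrays, male replicate 2 was left raised by normexp on the local background, as given above. With the normexp correction by the median background of each array 11 were lower and 20 higher (12.9% and 57.1% of all), and with normexp on the local background 4 and 0 (5.0% and 8.6%). Ccnb1, lower by a difference of -0.33 (adjusted p = 0.0158), turned to 0.039 under the former and 0.078 under the latter of these corrections.

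Between 21 and 78 weeks, 19 of the 48 were lower and 0 higher, at 32.8% and 13.8% of all gene names. The median of all gene names was -0.18 and that of the 48 was -0.30, and 0 genes had all old rats below all adults, a pattern of 2.94% of all. At an unadjusted p under 0.05, 22 were lower and 0 higher, against 37.2% and 15.7% of all. Ccnb1 was lower by a difference of -0.70 (1.62-fold, adjusted p = 1.75e-05), Mad2l1 by -0.60 (adjusted p = 0.000326), Cdc20 by -0.51 (adjusted p = 0.000549) and Pcna by -0.35 (1.28-fold, adjusted p = 0.000105). Replication genes were among the genes called here, Mcm7 at -0.37 (adjusted p = 0.0122), Mcm2 at -0.25 (adjusted p = 0.0112) and Cdc45 at -0.22 (adjusted p = 0.0192). Mcm2 and Cdc45 lay close to the median of all gene names, -0.18. Of the 19, Rrm2 was well above background on none of the 20 arrays, Anln on 0 at 78 and 1 at 21 weeks, and Tpx2 on 0 and 2, so that these 3 calls rest on dim probes. A second Rrm2 probe differed by 0.02 here, without a test. Within the scan day that held both ages, 4 of the 48 were called lower, where 7.38% of all gene names were. Normexp on the local background left 3 of these arrays raised, as given above. Under it 0 of the 48 were called by limma (3 lower at an unadjusted p under 0.05), against 2.09% of all lower and 1.54% higher. Without the 2 arrays whose Y-linked genes went against the label 17 were lower.

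Females and males were next compared within each age, the comparison for which the study was designed. In young hearts most cell division genes lay lower in females than in males, and 4 of them passed the test. Of the 48, 45 differences were below 0, against 47.2% of all gene names, and the median was -0.56 against 0.01. Only 15 gene names of 14654 were called in either direction, 0.0887% lower and 0.0136% higher in females, and 4 of the 48, Ccnb1, Cdk1, Ckap2 and Kifc1, were among those lower. At an unadjusted p under 0.05, 26 of the 48 were lower and 0 higher, against 2.21% and 1.06% of all. In 17 genes all 5 females lay below all 5 males, a pattern of 1.04% of all gene names. By role these were 4 of 5 cyclin and Cdk1 genes, 5 of 8 mitotic kinases, 4 of 13 kinesin and spindle genes, 3 of 10 chromosome and mitotic exit genes, 1 of 8 replication genes and 0 of 4 of nucleotide supply.

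Cdk1 had levels of 0.66, 0.35, 0.62, 0.64 and 0.77 in the 5 young females and of 1.41, 1.21, 1.65, 1.39 and 1.28 in the 5 young males. The sexes did not overlap, and the female minus male difference was -0.78 ± 0.15 log2 (SE), males being 1.72-fold higher (adjusted p = 0.0269, limma). Its cyclin, Ccnb1, had levels of -2.07, -2.27, -2.10, -2.45 and -2.03 in females and of -1.33, -1.60, -1.0, -1.26 and -1.12 in males. Every male was above every female, by 1.90-fold (-0.92 ± 0.16, adjusted p = 0.00868). Kifc1 stood at 0.56, 0.56, 0.66, 0.63 and 0.89 in females and at 1.29, 1.17, 1.31, 1.37 and 1.01 in males, with no overlap (-0.57 ± 0.12, 1.48-fold, adjusted p = 0.0377). For Ckap2 the females had -1.05, -1.16, -0.99, -1.0 and -0.88 and the males -0.29, -0.55, -0.33, -0.42 and -0.33. All males again exceeded all females (-0.63 ± 0.12, 1.55-fold, adjusted p = 0.0269). In each of the 4 genes a two-sided exact permutation test over the 10 rats gave p = 0.00794, the smallest that 5 against 5 allows. The count of 4 moved when single rats were left out. With any of female replicates 1 to 4, or of male replicates 1 and 4, taken out it was 1, and with male replicate 5 taken out 3. With male replicate 3 taken out it was 0, where Cdk1 differed by -0.71 (adjusted p = 0.122, limma) and Ccnb1 by -0.86 (adjusted p = 0.0511). With each rat left out in turn, the differences ranged from -0.82 to -0.71 for Cdk1 and from -1.01 to -0.86 for Ccnb1. Those of Ckap2 ranged from -0.68 to -0.60 and those of Kifc1 from -0.63 to -0.53. Same-numbered rats of both sexes sat on the same slide. With slide as a fixed block 3 of the 48 were lower (0.0682% of all gene names), and with replicate number as a block 2 (0.0546%). The study's methods name ANOVA within an age, without adjustment for multiple tests. A t-test within the age, used in its place, gave 29 of the 48 lower before adjustment, against 3.86% of all gene names. After an adjustment that the study did not make it gave 2, against 0.0682% called in either direction. The fit on the young table alone called 5 of the 47 members it held and 0.121% of its 14005 gene names.

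Other mitotic genes separated the young sexes without passing the adjusted threshold. Ube2c was at -1.52, -2.33, -1.17, -1.35 and -1.26 in females and at -0.55, -0.75, -0.58, -0.65 and -0.49 in males. Its sexes did not overlap (-0.92 ± 0.21, adjusted p = 0.126, limma). Pttg1 differed by -0.73, Kif20a by -0.89, Plk1 by -0.53, Bub1b by -0.87, Melk by -1.10, Ccna2 by -0.98 and Bub1 by -0.45, each with all females below all males and an adjusted p from 0.147 (Pttg1) to 0.719 (Bub1). Top2a stood at -1.47, -1.67, -1.89, -1.26 and -1.55 in females and at -1.19, -1.12, -0.87, -0.87 and -1.04 in males, and Birc5 at -1.75, -1.75, -1.41, -1.74 and -1.66 against -1.43, -1.62, -0.94, -1.03 and -1.20. The females lay lower for Top2a with no overlap (-0.55), and the sexes overlapped for Birc5. Among the replication genes, Mcm2 stood at -0.62, -0.62, -0.96, -0.82 and -1.09 in females and at -1.08, -0.81, -0.82, -0.72 and -0.86 in males, a difference of 0.04 with full overlap. Pcna differed by -0.09 and was not called.

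Erythroid markers moved with sex in the same hearts. All 4 measured were below 0 in young females, and 2 were called, Slc4a1, the anion exchanger of red cells, at -1.03 (adjusted p = 0.00323, limma) and Ahsp, the chaperone of alpha globin, at -1.34 (adjusted p = 0.00868). The summed level of the list was 4.82 to 5.57 in young females and 5.41 to 6.09 in young males, with all 4 markers well above background on every array. Its part in the sex difference of the division genes was not tested. At 21 weeks the erythroid summed level was 5.25 to 5.97 in females and 5.73 to 6.55 in males. In old rats it was 4.12 to 5.93 in those labelled female and 5.67 to 6.01 in those labelled male. Fibroblast and endothelial markers were not called between the young sexes. Their summed levels were 8.49 to 8.65 and 6.97 to 7.33 in young females, and 8.62 to 8.80 and 6.79 to 7.04 in young males, values without a test. Of the 63 other cell cycle genes, 51 were below 0 in young females, against 47.2% of all gene names, with a median of -0.26. By limma 0 were called, and 15 were lower at an unadjusted p under 0.05, against 2.21% of all. In 12 of the 63 all females lay below all males, a pattern of 1.04% of all.

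**Figure D5:**
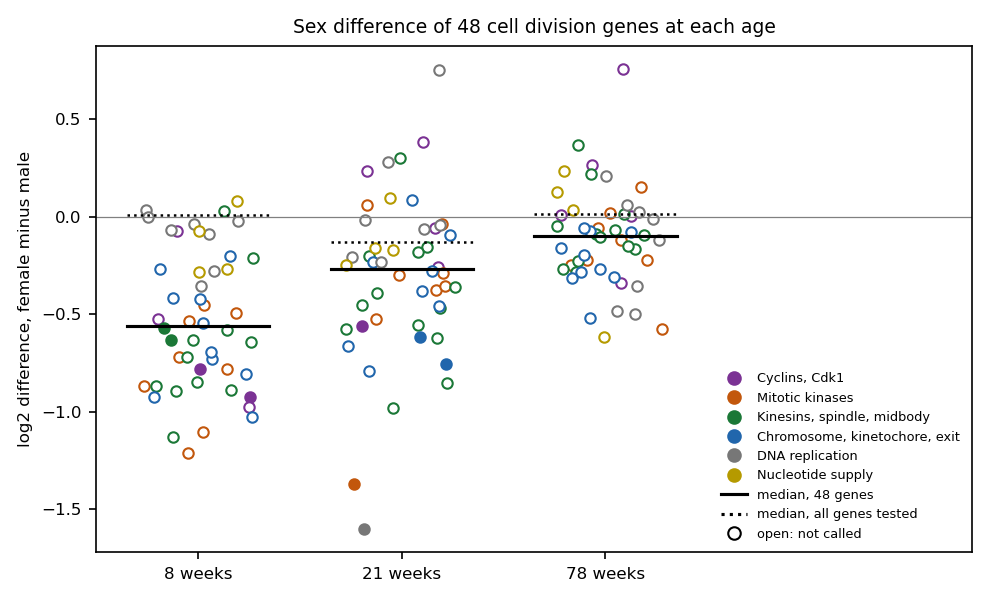
Log2 difference, female minus male, of each of the 48 genes at 8, 21 and 78 weeks (5 rats per sex and age), coloured by role and filled where called, with solid bars for the median of the 48 and dotted bars for that of all gene names. At 8 weeks the solid bar is at -0.56 and the dotted one at 0.01, at 21 weeks they are at -0.27 and -0.13, and at 78 weeks at -0.10 and 0.02.

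In adult hearts 5 genes passed the test. At 21 weeks 5 of the 48 were lower in females, where 4.18% of all gene names were, and 0 were higher, where 5.6% were. At an unadjusted p under 0.05, 11 were lower and 1 higher, at 17.5% and 11% of all. The median of the 48 was -0.27 and that of all gene names -0.13. Cdk1 had levels of -0.05, -0.14, -0.24, 0.03 and 0.17 in females and of 0.15, 0.64, 0.49, 0.40 and 0.87 in males, which overlapped in 1 rat of each sex (-0.56 ± 0.15, 1.47-fold, adjusted p = 0.0215, limma). Ube2c differed by -0.75 ± 0.21 (1.68-fold, adjusted p = 0.0258) and Pttg1 by -0.62 (adjusted p = 0.0244). Mcm5 was called lower in females (adjusted p = 0.00362), but was well above background in 0 of 5 females and 2 of 5 males, so that no fold is given. Aurkb, the fifth, had no fold that its background allowed either. Of the other genes called between the young sexes, Ccnb1, at -0.26, Kifc1, at -0.20, and Ckap2, at -0.18, were not called. Without the array of weakest signal and the 2 arrays whose Y-linked genes went against the label, 2 of the 48 were lower, at 0.553% of all gene names, and with the adult table alone 1 was. Leaving out female replicate 1 or 3 or male replicate 2 left 2, and leaving out male replicate 5 left 1.

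In old hearts 0 of the 48 and 0 of all 14654 gene names were called between the sexes by limma. At an unadjusted p under 0.05, 4 of the 48 were lower and 1 higher in females, at 5.19% and 3.75% of all gene names. The t-test within the age gave 1 and 0, at 2.97% and 3.47% of all. The median of the 48 was -0.10. Cdk1 stood at 0.22, -0.28, -0.32, -0.81 and -0.07 in the rats labelled female and at -0.13, -0.45, -0.50, -0.21 and 0.00 in those labelled male, with wide overlap. The smallest p-values were those of Mcm3 (-0.36, adjusted p = 0.446), Ccne2 (0.76), Ckap2 (-0.27), Ccnb1 (-0.34) and Mcm6 (-0.48). Without these 2 arrays, 0 of the 48 and 146 of all gene names were called, and the median of the 48 was -0.17.

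Whether the sex difference itself changed with age was tested as an interaction. None of the 48 was called in any of the 3 such comparisons by limma, and 1 gene name of all was in each (0.00682%). From 8 to 78 weeks the female minus male difference moved upward in 40 of the 48, by a median of 0.49 against 0.01 over all gene names, and 10 of the 48 were higher and 0 lower at an unadjusted p under 0.05, against 1.83% and 1.79% of all. At that threshold 5 were higher and 1 lower from 8 to 21 weeks (5.82% and 8.5% of all), and 3 higher and 1 lower from 21 to 78 weeks (11% and 6.78%). For Cdk1 the change was 0.79 ± 0.21 (adjusted p = 0.9997). These values include the 2 old arrays whose Y-linked genes went against the label. Without them the difference moved upward from 8 to 78 weeks in 39 of the 48, by a median of 0.41, with 6 higher and 0 lower at an unadjusted p under 0.05 (2.55% and 3.39% of all). From 21 to 78 weeks 3 were higher and 1 lower (11.2% and 7.04%), and none of the 48 was called by limma in either. The change of Cdk1 from 8 to 78 weeks was then 0.73 ± 0.23 (adjusted p = 0.482). A change of the sex difference with age was thus not shown for any single gene.

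Mki67 and Cdkn3 had probes but no table entry and were described outside the fit over all genes. Mki67, the proliferation antigen Ki-67, had levels of -2.89, -2.99, -2.75, -2.27 and -2.95 in young females and of -1.88, -1.99, -1.73, -2.12 and -1.98 in young males. The sexes did not overlap, and males were 1.78-fold higher (two-sided exact permutation p = 0.00794, adjusted p = 0.0238 over 6 such tests). It was well above background in 10 of 10 young, 1 of 10 adult and 6 of 10 old rats, the latter being 5 of 5 labelled male and 1 of 5 labelled female. That 1 was female replicate 2, an array with the male level of Ddx3y and Eif2s3y. Without it and male replicate 3, Mki67 was well above background in 0 of 4 old rats labelled female and 4 of 4 labelled male. The sexes then did not overlap, with a female minus male difference of -1.86 (exact permutation p = 0.0286, 4 against 4, not adjusted). Over all 10 arrays Mki67 differed by -1.39 between the labelled sexes (exact permutation p = 0.0635, adjusted p = 0.0952). Its mean was -2.36 ± 0.49 (SD, n = 10) at 8 weeks, -4.51 ± 0.77 at 21 weeks and -3.69 ± 1.19 at 78 weeks. Cdkn3, a phosphatase that acts on Cdk1 and Cdk2, was well above background in all 30 rats, with means of -0.43 ± 0.54 at 8 weeks, -0.98 ± 0.53 at 21 weeks and -1.44 ± 0.19 at 78 weeks. Young males were 1.97-fold above young females for Cdkn3 (exact permutation p = 0.00794, adjusted p = 0.0238), and the sexes differed by -0.62 at 21 weeks (exact p = 0.0556, adjusted p = 0.0952) and -0.14 at 78 weeks (exact p = 0.357, adjusted p = 0.429). Without those 2 arrays the difference at 78 weeks was -0.23 (exact permutation p = 0.0571, 4 against 4). Plk4 was well above background on 0 arrays, and the probes of Hmmr on 0 and 3.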

How the data were processed

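Cy3-labelled RNA of 30 rat hearts, 1 array per rat, was hybridised to Agilent whole-genome rat arrays of 4 per slide. The authors extracted spot intensities with Feature Extraction 9.5 and deposited, for each age, a table of intensity divided by the array's 75th percentile, with genes they judged not expressed left out. Entries are named by gene or by probe, a gene name can have several, and most match 1 probe while 2787 to 2814 per table match a mean over several probes. Of 26553 to 27408 entries per table, 85 or 86 matched no scanner intensity, or mean of these, within 0.002 log2, over 10 arrays each at 8 and 78 weeks and the 5 of the females at 21 weeks. The tables fixed which genes were tested. In 5 columns, those of the 21-week males, the name gave only the group, and this table was set beside the scanner values for that reason. Because an entry can mix probes, levels came from the deposited scanner files: processed signal over the array's 75th percentile, on the log2 scale, for the probe of a gene with the highest mean over all 30 arrays. Processed signal is background-subtracted, and dim spots carry a substitute value, so that differences of dim probes depend on the background treatment.

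limma 3.58.1 in R 4.3.3 fitted 6 group means, with age differences as the mean of both sexes, and p-values were Benjamini-Hochberg adjusted over 14654 gene names; a gene was called at an adjusted p under 0.05. The number of arrays limits the precision. Replicate numbers come from the titles, and all 15 same-numbered pairs of both sexes at 1 age shared a slide. Named were Mki67, Top2a, Cdk1, Ccnb1, Birc5, Mcm2, Pcna and Rrm2, in each age comparison the 20 called genes with the largest difference and adequate signal, and at each age the 5 with the smallest p between sexes; the other genes given values were chosen after these were seen. The members and lists were chosen with earlier results of these data known. Alternatives were quantile normalization, normexp, raw signal, a filter on dim probes, other probes, slide or scan day as a block, the deposited tables, a t-test within an age and leaving out each rat. The fit was tested on simulated data.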

Additional observations from a re-analysis of the deposited data

Results flagged for a closer look

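In 139 groups of 5 rats, tested for the named genes that had adequate signal, 10 held a rat far from the other 4. Chance flags about 1 in 20 groups, so that a number of this size is close to what chance gives. Female 78-week replicate 4 was the rat in 3 of them, with Racgap1 at -2.24 (the other 4 at -1.40 to -1.23), Ube2c at -2.80 (-1.87 to -1.67) and Kif20a at -2.74 (-1.73 to -1.33). Male 8-week replicate 2 was low for Kif23, at -1.43 (-0.89 to -0.79), and for Plk1, at -0.16 (0.09 to 0.19). Mcm6 was low in male 8-week replicate 5, at -1.91 (-1.14 to -1.04), and high in male 78-week replicate 1, at -1.02 (-1.63 to -1.47). Bub1 was low in male 78-week replicate 4, at -1.81 (-1.0 to -0.79). Birc5 was high in female 8-week replicate 3, at -1.41 (-1.75 to -1.65), and Ect2 was high in male 21-week replicate 5, at -1.65 (-2.02 to -1.95). All are log2 levels over the 75th percentile of the array.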

How the results depend on the processing

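No alternative gave a member called higher at 78 than at 8 or at 21 weeks, or in females at 8 weeks. Counts that left the range within 1.5 times of the reported one are these. For 27 lower at 78 than at 8 weeks, normexp on the local background gave 7 and slide as a fixed block 6. For 23 lower at 21 weeks, normexp gave 4, raw signal 13 and normexp on the median background of the array 11; for the 2 higher, raw signal gave 14 and the latter normexp 20, normexp and the fit without the weakest array and the 2 with Y-linked genes against the label 0, and quantile normalization, the dim-probe filter, the first table entry, the mean over probes and slide as a random block 1 each. For 19 lower at 78 than at 21 weeks, normexp gave 0 and scan day 2 alone 4. For 4 lower in 8-week females, normexp gave 0, raw signal 2, the replicate block 2 and the t-test within the age, after adjustment, 2. For 5 at 21 weeks, normexp and that t-test gave 0, raw signal and the normexp on the median background 10, the adult table alone 1, and the fit without those 3 arrays 2. Leaving out each rat in turn gave 0 to 3 higher at 21 weeks, 0 to 4 lower in 8-week females, and 1 to 7 lower and 0 to 1 higher in 21-week females. Under normexp on the local background, differences turned at 78 minus 8 weeks for Ccnb2 (0.048), Tpx2 (0.086) and Ccna2 (0.045), and at 21 minus 8 weeks for Ccnb1 (0.078), Pcna (-0.13), Ccnb2 (0.15), Melk (0.11), Tpx2 (0.19), Ccna2 (0.10), Spc25 (0.020), Mcm6 (0.025) and Tyms (0.017); with raw signal at 21 minus 8 weeks for Ccnb2 (0.0072) and Tpx2 (0.091); and with normexp on the median background there for Ccnb1 (0.039), Ccnb2 (0.088), Melk (0.013), Tpx2 (0.11) and Ccna2 (0.040). On 3 arrays (21-week male replicate 2, 78-week female replicate 1 and male replicate 1) normexp on the local background left a 25th percentile of 106 to 657 against 57.5 to 62.0 on the others, and the variant on the median background, the scan day settings and the fit without 3 arrays were chosen after seeing the data. Deviations of same-numbered rats correlated at -0.09 to 0.29 in the 15 pairs of 1 age, which share a slide, with 12 above 0 and 7 over 0.1, and at -0.28 to 0.15 in the 30 pairs across ages. Not every pair was over 0.1, so the numbers were not taken as a pairing. Dim probes limit what a low level can show.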
